A study of Mus musculus with 42 samples.

Results

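Collagens VI, VII and XVIII are matrix collagens that build beaded microfibrils, anchoring fibrils and basement membranes, and they are followed here through 4 genes, Col6a1, Col6a3, Col7a1 and Col18a1. The members were every probe that the platform annotation assigns to these 4 genes, whatever its values. These genes and the gene lists below were chosen with earlier results of these data known, so their counts are descriptions. They are 4 of the 15096 genes on the array and are read by 6 probes, 3 of them for Col6a3 and 1 for each of the others. RNA from 21 mouse mammary tumours was hybridised on 42 two-colour arrays, 2 dye-swapped arrays for each tumour, always against the same universal mouse reference RNA. All tumours descend from neoplasms of FVB/N-Tg(WapMyc)212Bri mice, in which the promoter of the milk protein gene Wap drives c-Myc, so every tumour carries the transgene and there was no tumour without it. Selection in living mice had given glandular, solid or comedo without lung metastases, solid or comedo with lung metastases, and spindle-cell lines. The labels number the tumours but do not say to which line a tumour belongs, nor the age of the host, and tumours of the same line may be related. The groups are therefore the 21 tumours. The p-values of F tests and contrasts measure a difference between tumours against the spread between 2 hybridisations of the same tumour, not against the spread between animals. The 2 hybridisations are dye-swapped, so without a dye term this spread includes any dye effect on the gene. The p-values of correlations come from permuting tumours.

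Collagen VI is a heterotrimer in which the chains encoded by Col6a1, Col6a2 and Col6a3 join before secretion, and its beaded microfibrils lie between basement membranes and the fibrillar collagens of connective tissue. Collagen XVIII is a basement membrane collagen that carries heparan sulfate chains, and its C-terminal fragment is endostatin. Collagen VII forms the anchoring fibrils that tie the basement membrane under stratified epithelium to the matrix beneath it, and it binds laminin-332 there.

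Values are deposited log2 ratios of tumour over reference, turned so that all arrays point the same way. The deposited ratios were not turned for the dye swap: the 2 arrays of a tumour correlated below 0 over probes in 20 of 21 tumours. The orientation of each tumour was therefore read from the data, as the sign of its loading on the first eigenvector of the 21 array differences, and Myc, positive by convention, fixed the common sign. Whether this overall sign is the true one is unknown. Thus "higher" and "lower" below hold under this convention and would all exchange if it were wrong. The tumour whose arrays did not correlate below 0 before turning was 656 (r = 0.07). Its 2 arrays were still turned opposite ways, so its own values do not back that turning. In tumours 639, 647, 660 and 646 this correlation lay between -0.09 and -0.06. Each array gave 8600 to 21328 values, and 38.3% of all values were exactly log2 of a ratio of small whole numbers, as dim spots give. Slide runs 1, 2 and 3, read from running numbers in the labels, held 9, 13 and 20 arrays. The labels do not say what a slide run stands for. Krt8, a keratin of luminal epithelium, lay between 0.74 and 3.24 in all 21 tumours under this turning, which it does not test. It was named apart from the rule for named genes given at the end. The other epithelial markers named below each fell below 0 in some tumour, Epcam to -3.13 in 646 and Spint2 to -3.10 in 649. Of 7766 genes tested with limma's moderated F test, 1356 passed an adjusted p of 0.05 for a difference between tumours, which is 17.5%, with slide run as a covariate 533 did (6.86%), and with a dye term 3308 did (42.6%).

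Of the 4 collagens, 3 differed between tumours and Col6a3 as a mean of its measured probes did not, beside the 17.5% of all genes. With a dye term in the moderated F test Col6a3 passed as well (adjusted p = 0.0306), as did 42.6% of all genes. The same 5 tumours, 644, 646, 647, 649 and 673, held the 5 highest levels of Col6a1, of Col6a3 and of Col18a1. For Col7a1 the 5 highest tumours were 640, 644, 647, 649 and 673. A 2-component mixture fitted to each gene put those same 5 tumours into the smaller component of Col6a1, Col6a3 and Col18a1, and put tumour 663 alone into that of Col7a1. Every such ranking rests on the orientation read from the data, and these 5 tumours had the smallest loadings, so the ranks with these 5 turned the other way are given below. Levels of different genes are ratios to the reference and are not compared with each other here.

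**Figure D1:**
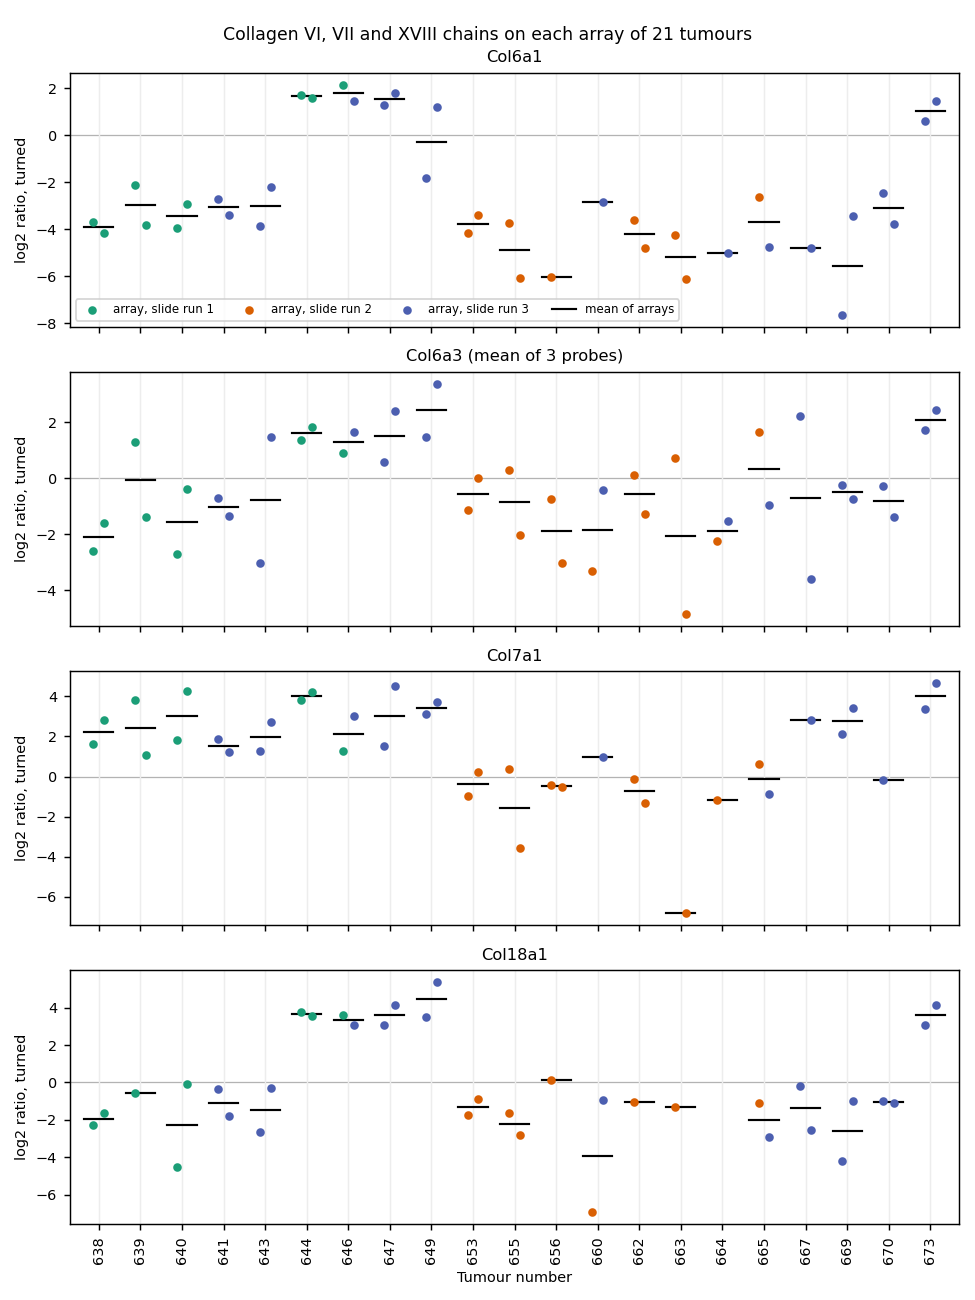
Turned log2 ratios (y axis) of the 4 collagen genes on each array of 21 tumours (x axis, tumour number); points are arrays, coloured by slide run, and bars are tumour means. Tumours 644, 646, 647, 649 and 673 stand highest for Col6a1, Col6a3 and Col18a1, and the means of tumours with both arrays in slide run 2 lie between -6.81 and -0.37 for Col7a1.

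Col6a1, the alpha 1 chain of collagen VI, was measured on 38 of 42 arrays, and 5.26% of its values were ratios of small whole numbers. Tumour means ran from -6.04 in tumour 656, known from 1 array, over a median of -3.44 to 1.80 in tumour 646. The 2 arrays read 2.15 and 1.45 in tumour 646, 1.71 and 1.61 in tumour 644, and 1.30 and 1.79 in tumour 647. They read 0.62 and 1.46 in tumour 673. These 4 tumours were the ones above the reference on both arrays. Tumour 649 read -1.81 and 1.22, so its arrays fell on opposite sides of the reference. The other 16 tumours lay between -6.04 and -2.84, below the reference on every array measured. The range of tumour means was 7.84, with an SE of 0.84 for a tumour on 2 arrays, and the difference between tumours passed the moderated F test (adjusted p = 0.000423).

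In the order of Col6a1 levels, tumours 646, 644, 647, 673 and 649 were followed by tumour 660 at -2.84 (1 array) and tumour 639 at -2.97. No 2 neighbours in that order differed: of 20 neighbouring pairs the lowest adjusted p of a moderated contrast was 0.516, between tumours 649 and 660, which were 2.54 ± 1.46 (SE) apart. Further apart in the order, 53 of 210 pairs of tumours differed (25.2%), where 1.76% of the contrasts of all genes and pairs did. Tumour 646 differed from 15 other tumours, 644 from 14, 647 from 11 and 673 from 10. Tumour 649 differed from 3, which were tumours 656, 663 and 669, and tumour 660 from 0, where the limma contrasts put 83 of the gene's 210 pairs at an unadjusted p of at most 0.05. Levels by slide run overlapped, from -3.93 to 1.66 in the tumours with both arrays in run 1, from -6.04 to -3.78 in run 2 and from -5.55 to 1.54 in run 3. With slide run as a covariate the call for Col6a1 held (adjusted p = 0.0052). Within runs of fewer tumours it did not pass (adjusted p = 0.122, 0.9997 and 0.0728 in runs 1, 2 and 3). No gene passed within run 1 or 2, and 2.23% did within run 3.

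Col6a3 encodes the long alpha 3 chain, from which the C-terminal fragment endotrophin is released. Averaged on each array over those of its 3 probes measured there, it ran from -2.10 in tumour 638, over a median of -0.70, to 2.42 in tumour 649. Arrays thus differed in which probes they averaged. The first array of tumour 638 was read by probe 2670 alone (-2.61). The 2 arrays of tumour 656 were read by different probes, 18795 (-0.74) and 3595 (-3.02). How far this adds to the spread between arrays was not tested. Tumours 649, 673, 644, 647 and 646 held means of 2.42, 2.07, 1.60, 1.5 and 1.27, and tumour 665 came next at 0.34. The other tumours lay at or below -0.05. With an SE of 1.21 the range of 4.51 did not pass the moderated F test (adjusted p = 0.440). No pair of tumours differed for Col6a3: 0 of 210 moderated limma contrasts passed, with 16 at an unadjusted p of at most 0.05.

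The 3 probes of Col6a3 disagreed. Probe 3595 was measured on 38 arrays and read 3.38 and 2.67 in tumour 644, 3.55 and 3.30 in 646, 2.74 and 3.12 in 647, 2.49 and 3.51 in 649, and 3.19 and 3.79 in 673. The next highest array on this probe was that of tumour 667 at 2.50, level with the first array of tumour 649, and the second array of tumour 667 read -3.60. Tested as a probe among 9407 probes, of which 19.2% passed, probe 3595 differed between tumours (adjusted p = 0.0406). When the fit included a term for the dye, the SE of the mean of the measured probes was 0.85. That mean then passed the moderated F test too (adjusted p = 0.0306), where 42.6% of all genes did. Probe 2670 was measured on 34 arrays and ran from -2.89 to 1.62 in tumour means, with an SD of 1.85 between the arrays of a tumour. Probe 18795 was measured on 24 arrays, with both arrays in 6 tumours, and its highest mean, 3.64, was in tumour 665. Ratios of small whole numbers made up 32.4% and 33.3% of the values of these last 2 probes, against 13.2% on probe 3595. Neither was tested as a probe, since both arrays of at least 15 tumours had to be measured. The gene's result thus depended on the probe, and which probe reads the transcript best was not tested.

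**Figure D2:**
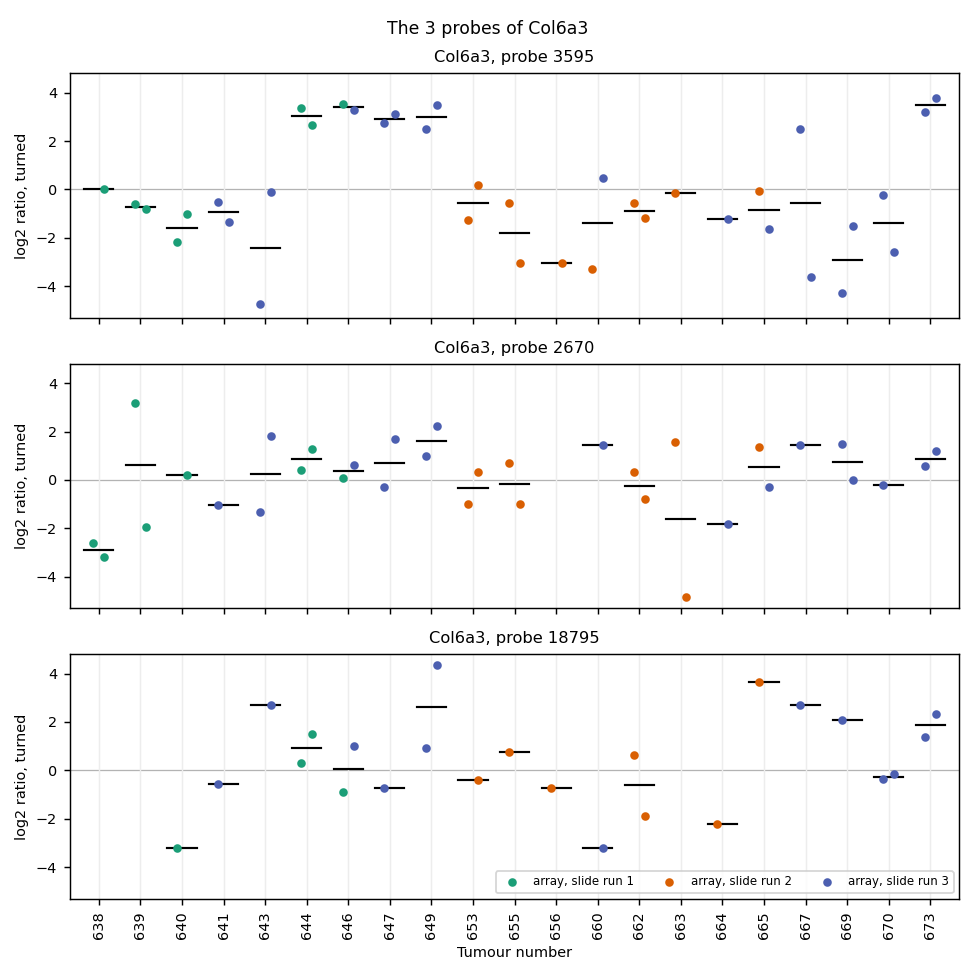
Turned log2 ratios (y axis) of the 3 Col6a3 probes on each array of 21 tumours (x axis, tumour number); points are arrays, coloured by slide run, and bars are tumour means. On probe 3595 tumours 644, 646, 647, 649 and 673 have both arrays between 2.49 and 3.79, while probe 18795 has values on 24 arrays and its highest mean is 3.64 in tumour 665.

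The third chain of the trimer, Col6a2, is on the array but was measured on both arrays of 12 tumours only, too few for the main test. Its highest means were 1.76 in tumour 646 and 1.39 in tumour 647, followed by 0.87 in tumour 656 from 1 array. Tumours 644, 649 and 673 held 0.83, 0.81 and 0.77. Of the 5 tumours highest for Col6a1, 4 were among the 5 highest for Col6a2. With the filter lowered to both arrays of 10 tumours, the moderated F test gave an adjusted p of 0.0510 for Col6a2, where 10.9% of genes passed.

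Col18a1, the chain of the basement membrane collagen XVIII, was measured on 36 arrays and in 20 tumours, with no usable value for tumour 664. Tumour means ran from -3.95 in tumour 660, over a median of -1.2, to 4.45 in tumour 649. The 2 arrays read 3.53 and 5.38 in tumour 649, 3.78 and 3.55 in 644, and 3.10 and 4.13 in 673. They read 3.06 and 4.13 in tumour 647 and 3.61 and 3.08 in tumour 646. No array of these 5 tumours overlapped with any array of the other 15, of which the highest read 0.14, the single array of tumour 656. The lowest array, -6.94, was the first of tumour 660, whose second read -0.96. The range of tumour means was 8.40 with an SE of 1.11 for 2 arrays, and the difference between tumours passed the moderated F test (adjusted p = 0.00635).

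The order of Col18a1 levels ran from 649 over 644 at 3.66, 673 at 3.62, 647 at 3.60 and 646 at 3.34 to 656 at 0.14 and 639 at -0.56, both on 1 array. Of 19 neighbouring pairs none differed; the widest gap, between tumours 646 and 656, was 3.21 ± 1.93 (SE; adjusted p = 0.547). Over all pairs, 13 of 190 differed (6.84%), where 1.76% of the contrasts of all genes and pairs did. Each of the 13 lay between one of the 5 highest tumours and tumour 638, 640, 655, 660, 665 or 669. The call for Col18a1 held with slide run as a covariate (adjusted p = 0.0314) and within run 3 (0.0206, where 2.23% of genes passed). Col18a1 did not pass the F test within run 1 (adjusted p = 0.316) or run 2 (0.9997), where no gene did. These levels rest on how tumours 644, 646, 647, 649 and 673 were turned. Their log2 ratios correlated with those of the other 16 tumours above 0 in 79 of 80 pairs (median r over probes 0.20), against a median of 0.49 among the 16 and 0.59 among the 5. The turning took its signs from these same correlations, so values above 0 follow largely from it and do not test it. With these 5 tumours turned the other way, a choice made with the data in view and under which 20.6% of genes passed, Col18a1 lost its call (adjusted p = 0.602), and 4 of its 5 lowest tumours came from these 5. Col6a1 kept its call in that setting (adjusted p = 0.0356) and still had the same 5 tumours highest, between -1.80 and 0.29 against at most -2.84 in the others. For Col6a3 and Col7a1 none of these 5 tumours was then among the 5 highest.

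Col7a1, the chain of the anchoring fibril collagen, was measured on 37 arrays. Tumour means ran from -6.81 in tumour 663, known from 1 array whose median over all probes was itself -1.22, over a median of 1.99, to 4.01 in tumours 673 and 644. The 2 arrays read 3.36 and 4.67 in tumour 673, 3.82 and 4.20 in 644, and 3.12 and 3.72 in 649. They read 1.52 and 4.54 in tumour 647 and 1.81 and 4.25 in tumour 640. Tumour 646, highest for Col6a1, read 1.28 and 3.01 and stood below 9 other tumours. Next to 663 at the low end, tumour 655 read 0.40 and -3.55. Single arrays gave 2.80 in tumour 667, 1.00 in 660, -0.15 in 670 and -1.18 in 664. The range of tumour means was 10.8, the difference between tumours passed the moderated F test (adjusted p = 0.00289), and without the array of tumour 663 it still did (adjusted p = 0.0228). After quantile normalization the lowest mean of Col7a1 was -3.93.

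For Col7a1, 20 of 210 pairs of tumours differed (9.52%), where 1.76% of the contrasts of all genes and pairs did. Of these 20 pairs, 17 involved tumour 663. The other 3 set tumour 655 against tumours 644 and 673 (5.59 apart in each, adjusted p = 0.0228 and 0.0227) and against tumour 649 (5.0, adjusted p = 0.0427). None of the 20 neighbouring pairs differed, the lowest adjusted p being 0.0901 between tumours 655 and 663. Col7a1 levels moved with the slide run. Tumours with both arrays in run 2 lay between -6.81 and -0.37, with a median of -0.71, below those of run 1, between 2.23 and 4.01. Run 3 spanned both, from -0.15 to 4.01 with a median of 2.77. With slide run as a covariate, where 6.86% of all genes passed, the call was lost (adjusted p = 0.209). Col7a1 did not pass the F test within run 1, 2 or 3 either (adjusted p = 0.761, 0.765 and 0.439). No gene passed within run 1 or 2, and 2.23% did within run 3, so failing there is not particular to Col7a1. Tumours with arrays in different runs read 0.61 in run 2 and -0.88 in run 3 (tumour 665), and 1.28 in run 1 and 3.01 in run 3 (tumour 646). The 2 arrays of each of these tumours were also dye-swapped, so slide run and dye cannot be told apart within them. For tumours with both arrays in the same run, tumour and slide run cannot be told apart.

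**Figure D3:**
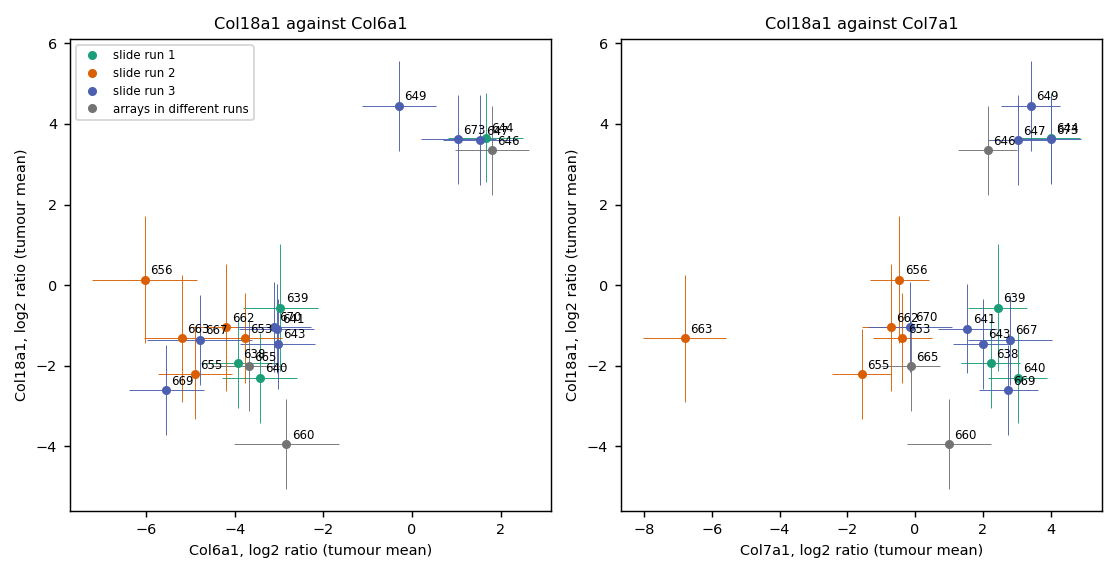
Tumour means of Col18a1 (y axes) against Col6a1 (left) and Col7a1 (right), all as turned log2 ratios; points are tumours with their number, bars are SE of the fit, and colours give the slide run. Tumours 644, 646, 647, 649 and 673 lie apart at Col18a1 levels of 3.34 to 4.45, and the other tumours lie at or below 0.14.

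Outside the 5 high tumours no correlation between the collagens passed its test. The 2-component mixtures had divided the tumours for each gene, so correlations between members were taken within the larger component of both genes. This gave 6 pairs of genes, over 14 to 16 tumours each. The division is that of the fit: no neighbouring tumours in the order of any of these genes differed in a moderated contrast. The 2 collagen VI chains had a Pearson r of 0.27 (n = 16, permutation p = 0.312, adjusted 0.760) and a Spearman rho of 0.23 (permutation p = 0.385, adjusted 0.771), and r was 0.27 without the 2 tumours farthest from the median of Col6a1. Their r was 0.60 with slide run as a covariate (permutation, adjusted p = 0.0799) and -0.55 with top values kept (adjusted p = 0.167). Col6a1 and Col18a1 had an r of -0.22 and a rho of -0.04 (n = 15, permutation p = 0.434 and 0.881, adjusted 0.760 and 0.881), and r was -0.11 without the 2 farthest tumours and 0.51 with slide run as a covariate (permutation, adjusted p = 0.107). Col7a1 and Col18a1 had an r of -0.19 and a rho of -0.31 (n = 14, permutation p = 0.534 and 0.283, adjusted 0.760 and 0.771), and r was -0.27 without the 2 farthest and 0.42 with slide run as a covariate (permutation, adjusted p = 0.202). The sign of these values thus depended on the setting, and none passed. The other 3 pairs gave r between 0.02 and 0.27 and adjusted p-values of at least 0.760. No slide run held 6 of these tumours, so no value within runs can be given.

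The genes whose tumour means were most like each collagen were taken as the 5 with the highest Pearson r over at least 18 shared tumours, as a description. For Col6a1 they were Bgn (r = 0.96), which encodes the small proteoglycan biglycan that binds collagen VI, Lrp1 (0.95), an endocytic receptor, Sparc (0.95), a collagen-binding matricellular protein, and the collagen I chains Col1a2 (0.95) and Col1a1 (0.95), all over 21 tumours. For Col6a3 they were Mrc1 (0.93, 20 tumours), the macrophage mannose receptor, Lgals1 (0.93), galectin-1, the growth factor gene Pdgfa (0.93), the mitochondrial oxidoreductase gene Sqor (0.93) and Serping1 (0.92), the C1 inhibitor. For Col18a1 they were the calcium-binding S100a6 (0.96), Lgals1 (0.95), the adhesion molecule Alcam (0.94, 19 tumours), Tuba1a (0.94), a tubulin, and Igfbp4 (0.94). All 14 distinct genes among these 15 had their 5 highest means in tumours 644, 646, 647, 649 and 673, as the 3 collagens had. Of these genes, Pdgfa did not pass the moderated F test (adjusted p = 0.298). With these 5 tumours turned the other way, 4 of the 14 genes (Bgn, Lgals1, Sqor and S100a6) still had them highest, and r lay between -0.12 and 0.89 for the 5 genes of Col6a1, between -0.20 and 0.73 for those of Col6a3 and between -0.63 and 0.47 for those of Col18a1. The median r over all genes tested was 0.04 for Col6a1, 0.14 for Col6a3 and -0.01 for Col18a1.

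Col7a1 was most like Fgl2 (r = 0.92), a fibrinogen-like protein, Baiap2 (0.91) and Scin (0.89), which act on actin, Oaz2 (0.90), an antizyme, and Ptk7 (0.89), a receptor-like pseudokinase of planar polarity signalling, all over 21 tumours. All 5 were lowest in tumour 663, as Col7a1 was, and so were 1420 of the 7766 genes tested (18.3%). Without that tumour the values of r were 0.85, 0.91, 0.85, 0.82 and 0.89 in the same order. Scin and Ptk7 passed the moderated F test between tumours (adjusted p = 0.0120 and 0.0183). Fgl2, Baiap2 and Oaz2 did not (adjusted p = 0.0607, 0.0740 and 0.440). The median r of Col7a1 with all genes was 0.39, and 0.11 after each array had been centred on its own median.

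Among the partners of collagen VI and the microfibrils, 5 of 9 genes tested differed between tumours, against 17.5% of all genes. Fbln2, a basement membrane fibulin, ran from -6.65 in tumour 663 to 1.84 in 647 (adjusted p = 0.000151). Tnc, the adhesion-modulating glycoprotein tenascin-C, ran from -3.14 in tumour 656 to 3.56 in 673 (adjusted p = 5.03e-05). Dcn, the proteoglycan decorin, ran from -5.08 to 1.2 and Fn1, fibronectin, from -3.60 to 1.53. All 4 had their 5 highest means in the 5 tumours that were highest for Col6a1. With these tumours turned the other way, Fbln2 and Dcn still had all 5 highest, Fn1 had 4 and Tnc 0. Col6a4, another collagen VI chain, did not pass (-3.44 to 4.35, adjusted p = 0.692), and none of those 5 tumours was among its 5 highest. Has2, a hyaluronan synthase, did not pass either (adjusted p = 0.641).

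All 4 fibrillar collagens tested differed between tumours, beside 17.5% of all genes. Col3a1 ran from -9.90 in tumour 667 to 1.78 in 646 (adjusted p = 8.73e-06). Col1a2 ran from -4.59 to 2.04 and Col1a1 from -2.90 to 3.08, both lowest in tumour 656 and highest in 646. Col5a2 ran from -2.40 to 2.37. The median r of these 4 genes was 0.94 with Col6a1, 0.86 with Col18a1 and 0.49 with Col7a1, over tumours that share slide runs and the turning above. All 4 had their 5 highest means in tumours 644, 646, 647, 649 and 673. With these tumours turned the other way, Col3a1 still had all 5 highest, Col1a2 had 4, and Col1a1 and Col5a2 had 0. In that setting r with Col6a1 was 0.85 for Col1a2 and -0.12 for Col1a1.

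Of the basement membrane genes tested, 5 of 15 differed between tumours, beside 17.5% of all genes. Lamb1, a laminin beta chain, ran from -4.99 in tumour 663 to 2.40 in 649 (adjusted p = 0.000329). Nid1, nidogen, which links laminin to collagen IV, ran from -4.88 to 1.23 (adjusted p = 0.00596). Hspg2, perlecan, which like collagen XVIII carries heparan sulfate, ran from -4.56 to 0.62 (adjusted p = 0.0237). Sparc ran from -2.60 to 2.02. Agrn, agrin, the other heparan sulfate proteoglycan of basement membranes, did not pass (-0.56 to 1.84, adjusted p = 0.791), nor did the collagen IV chain gene Col4a3 (-1.87 to 2.17, adjusted p = 0.630). Of the 5 tumours highest for Col18a1, 5 were among the highest for Lamb1 and Nid1, 4 for Hspg2, 2 for Agrn and 1 for Col4a3. With these 5 turned, the numbers were 0 for Lamb1, 1 for Nid1, 4 for Hspg2, 0 for Agrn and 2 for Col4a3. Of the 15 genes, 2 passed with slide run as a covariate, 9 with a dye term and 8 with the 5 tumours turned. Of all genes, 6.86%, 42.6% and 20.6% passed in these settings.

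In the epidermal anchoring complex, which holds the partners of collagen VII at the cell surface, 2 of 5 genes tested passed, beside 17.5% of all genes. Itgb4, the integrin beta 4 chain of hemidesmosomes, ran from -1.88 in tumour 663 to 4.27 in 649 (adjusted p = 0.000421). Plec, the cytolinker plectin, ran from -3.13 in tumour 663 to 1.21 in 649 (adjusted p = 0.000451). Dst, which encodes a hemidesmosome plakin, ran from -3.10 to 0.97 (adjusted p = 0.827). Lama3, the alpha chain of laminin-332 to which collagen VII binds, ran from -3.00 to 6.0 (adjusted p = 0.473). Itgb4, Plec and Lama3 were each lowest in tumour 663, the tumour lowest for Col7a1, but the mean levels of 11 of the 15 gene lists were lowest there as well.

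Of the receptors for collagens and their fragments, 5 of 10 genes passed, beside 17.5% of all genes. Itga5, Gpc1, Itga3 and Itgav had the largest ranges among the 5. Itga5, the fibronectin receptor chain, ran from -3.18 to 1.79 (adjusted p = 2.81e-05). Gpc1, a glypican, ran from -2.75 to 1.45 (adjusted p = 0.0129). Kdr, a VEGF receptor, and Itgb3 did not pass (adjusted p = 0.392 and 0.295). With slide run as a covariate 3 of the 10 passed, beside 6.86% of all genes.

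Collagen synthesis and folding had 9 of 14 genes past the test, 3 with slide run as a covariate and 14 with a dye term. Of all genes, 17.5%, 6.86% and 42.6% passed in these settings. Serpinh1, the collagen chaperone HSP47, ran from -5.53 in tumour 667 to 0.77 in 644 (adjusted p = 0.000830). Sec24d, a coat protein needed to export procollagen, ran from -5.34 to 1.03 (adjusted p = 0.000711), and the lysyl hydroxylase genes Plod2 and Plod1 ran over 5.55 and 5.19. P3h3 and P4ha2, prolyl hydroxylases, did not pass (adjusted p = 0.220 and 0.117). Genes of collagen processing and breakdown had 13 of 17 past the test, 6 with slide run as a covariate and 7 with the 5 tumours turned the other way. All genes gave 17.5%, 6.86% and 20.6% there. Bmp1, the procollagen C-proteinase that also cleaves collagen VII, ran from -3.59 in tumour 664 to 3.86 in 667 (adjusted p = 0.0145). Mmp2, a gelatinase, ran from -4.57 in tumour 638 to 2.48 in 649 (adjusted p = 0.0186), and Lox, the cross-linking lysyl oxidase, from -7.37 to -0.41 (adjusted p = 0.000880). Adamts3 and Mmp13 did not pass (adjusted p = 0.996 and 0.365).

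**Figure D4:**
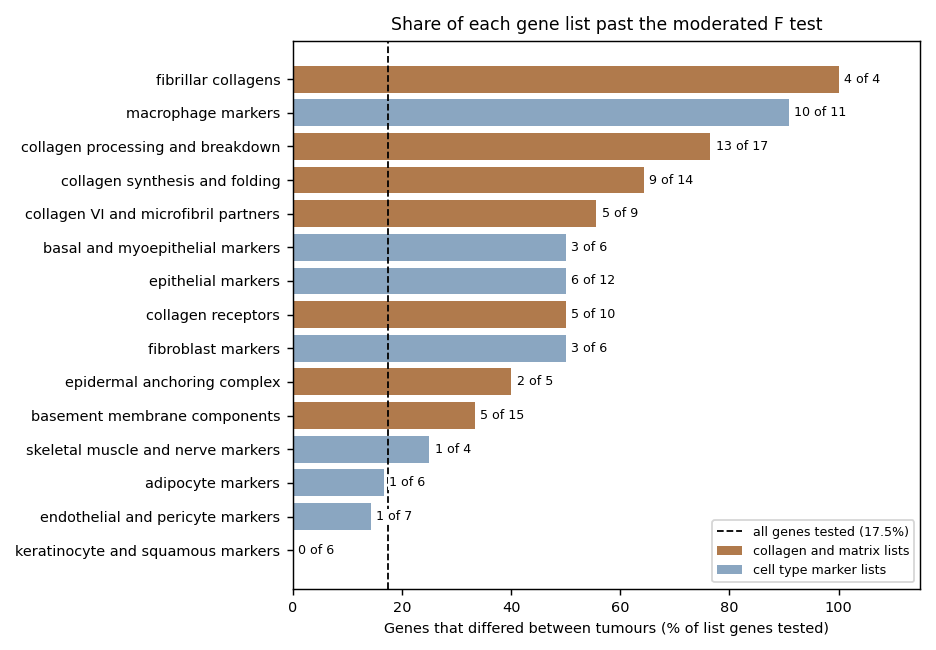
Share of the tested genes of each of 15 lists that differed between tumours (x axis, percent of list genes tested; bars with the counts beside them), brown for collagen and matrix lists and blue for cell type markers; the dashed line is the 17.5% of all genes tested. Fibrillar collagens reach 4 of 4 and keratinocyte markers 0 of 6, counts that move with the covariates as given beside each list.

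Markers of other cell types that a tumour can hold were read beside the collagens. In bulk RNA, fewer cells of a type and less RNA per cell cannot be told apart. The mean level of the 6 fibroblast markers tested ran from -4.62 over a median of -2.50 to 0.65, with its 5 highest values in tumours 644, 646, 647, 649 and 673. Of these markers 3 passed the test, beside 17.5% of all genes: Vim, vimentin (-4.84 in tumour 656 to 1.22 in 649, adjusted p = 1.01e-10), Fstl1 (-4.44 to 1.66) and Prrx1 (-6.07 to -0.17). S100a4 (adjusted p = 0.129) and Thy1 (0.894) did not. The mean level of the 11 macrophage markers ran from -2.43 over -0.39 to 2.48, with the same 5 tumours highest. Of these markers 10 passed, and 3 did with slide run as a covariate, beside 17.5% and 6.86% of all genes. The 10 included Msr1 (-7.15 to 1.88), C1qc (-3.81 to 5.80), Mrc1 (-2.38 to 4.31) and Fcer1g (-4.15 to 1.77). Cd68 did not pass (adjusted p = 0.0693). Of the 15 lists, 8 had their 5 highest mean levels in these 5 tumours. With these 5 turned the other way 1 list had, that of the fibroblast markers, and for the macrophage markers none of them was among the 5 highest. Their part in the collagen levels was not tested.

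The mean level of the 12 epithelial markers ran from -1.04 to 2.75, and those 5 tumours were its 5 lowest. Turned the other way, 4 of them were still among its 5 lowest. Epcam ran from -3.13 in tumour 646 to 3.69 in 667 (adjusted p = 2.41e-08) and Spint2 from -3.10 in 649 to 3.83 in 667 (adjusted p = 1.22e-05). Grhl2 and Krt19 also passed, and Cldn4 and Rab25 did not (adjusted p = 0.735 and 0.666). In all, 6 of the 12 markers passed the test, beside 17.5% of all genes. Single markers differed in rank. Those 5 tumours were the 5 lowest for Epcam and Spint2. For Grhl2 and Cldn4 1 of them was among the 5 lowest, and for Krt19 and Rab25 2 were. Cldn4 and Rab25 each had 1 of them among their 5 highest. Of the basal and myoepithelial markers 3 of 6 passed, Itgb4, Acta2 (-4.44 in tumour 656 to 1.39 in 667) and Tagln (-2.90 to 1.48), while Cdh3 and Cnn1 did not (adjusted p = 0.667 and 0.452). Of the endothelial and pericyte markers 1 of 7 passed, Des (-3.17 to 5.18), of the adipocyte markers 1 of 6, Car3 (-1.52 to 2.65), and of the skeletal muscle and nerve markers 1 of 4, Acta1 (-2.42 to 7.54). These counts stand beside 17.5% of all genes. With a dye term, where 42.6% of all genes passed, they were 4 of 7, 1 of 6 and 3 of 4. Under both centrings and quantile normalization 3 of 4 muscle and nerve markers also passed. With the 5 tumours turned, 3 of 6 adipocyte markers passed, beside 20.6% of all genes. None of the 6 keratinocyte and squamous markers passed the limma F test, where 17.5% of all genes did. In that test 3 of them had an unadjusted p of at most 0.05, and the lowest adjusted p was 0.101. With a dye term 3 of the 6 passed, beside 42.6% of all genes, with quantile normalization 2, and with centring on all measured probes 1. Krt10 and Ivl, genes of differentiating epidermis, ran from -2.05 to 0.89 and from -1.01 to 0.26 (adjusted p = 0.807 and 0.583).

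The sequences before the start sites are shown because Col6a1, Col6a3 and Col18a1 had the same 5 highest tumours, of which Col7a1 shared 4, under the orientation used. They are RefSeq windows of GRCm38.p6, each up to 250 bases upstream of a start, written 5′ to 3′ on the gene's strand, with motif matches in capitals. Col6a1 and Col18a1 both lie on the minus strand of chromosome 10, 326134 bases apart, at 76708792 to 76726044 and 77052178 to 77166530. The windows are chr10:76726045-76726294 for Col6a1, chr1:90844002-90844221 for Col6a3, chr9:108953336-108953585 for Col7a1 on the plus strand, and chr10:77166531-77166780 and chr10:77113706-77113955 for the 2 Col18a1 starts.
Col6a1: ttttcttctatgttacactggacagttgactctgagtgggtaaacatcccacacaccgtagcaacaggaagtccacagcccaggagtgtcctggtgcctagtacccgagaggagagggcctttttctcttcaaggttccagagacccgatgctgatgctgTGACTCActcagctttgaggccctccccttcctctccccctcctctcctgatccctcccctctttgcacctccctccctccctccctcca
Col6a3: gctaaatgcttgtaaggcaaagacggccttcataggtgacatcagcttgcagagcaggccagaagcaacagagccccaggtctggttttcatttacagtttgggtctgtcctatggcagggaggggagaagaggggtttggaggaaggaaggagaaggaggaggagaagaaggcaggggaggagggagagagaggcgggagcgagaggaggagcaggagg
Col7a1: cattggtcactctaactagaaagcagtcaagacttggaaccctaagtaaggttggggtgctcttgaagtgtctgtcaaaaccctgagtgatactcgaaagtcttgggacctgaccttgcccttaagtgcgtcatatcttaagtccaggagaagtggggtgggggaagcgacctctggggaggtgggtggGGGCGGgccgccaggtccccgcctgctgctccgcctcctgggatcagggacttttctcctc
Col18a1, upstream start: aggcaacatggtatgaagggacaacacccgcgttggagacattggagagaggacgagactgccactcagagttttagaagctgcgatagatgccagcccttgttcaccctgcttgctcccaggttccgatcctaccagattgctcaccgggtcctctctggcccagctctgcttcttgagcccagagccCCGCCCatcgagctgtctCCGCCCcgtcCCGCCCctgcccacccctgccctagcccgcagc
Col18a1, downstream start: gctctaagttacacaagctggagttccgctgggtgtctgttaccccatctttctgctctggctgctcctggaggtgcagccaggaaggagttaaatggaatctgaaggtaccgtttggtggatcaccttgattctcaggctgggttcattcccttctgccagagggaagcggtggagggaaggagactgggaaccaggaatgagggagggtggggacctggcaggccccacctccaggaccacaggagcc
Both strands were searched for the GC box GGGCGG, the AP-1 element TGANTCA, the TATA box TATAAA and the E-box CAGGTG. Over 32817 windows of 250 bases these were found in 32.7%, 6.75%, 12.4% and 17.2%. Col6a1 had an AP-1 match from base 161, Col7a1 a GC box from base 190, and the upstream Col18a1 window 3 GC boxes from bases 190, 208 and 218 on the reverse strand. No motif searched was in the Col6a3 window of 220 bases or in the downstream Col18a1 window. Col6a1, Col6a3 and Col18a1 thus shared no motif of these 4 in their windows, and a match or its absence here describes only these bases. Their GC content was 56.0% to 62%, against a median of 52.4% over all windows.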

How the data were processed

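Per the labels, total RNA was extracted with TRIzol, labelled with Cy3 or Cy5 and hybridised to arrays of a Compugen long-oligonucleotide library against the universal reference. The authors deposited log2 ratios of the dyes, a scale read from the values. Background correction, normalization and centring: not given in the sources used here. Of 726515 values on 22800 probes, 15512 stood at a repeated top value, above 16.6, and were treated as missing. Arrays were turned to a shared orientation (weakest for tumour 646). The same orientation came out for all 42 arrays without the members and list genes.

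Probes with 1 symbol in the platform annotation (16874) were named and averaged by gene over those measured on each array, and symbols were updated through gene identifiers. Genes with both arrays of at least 15 tumours were tested by a one-way moderated F test (limma 3.58.1, R 4.3.3, on uncentred values), with Benjamini-Hochberg adjustment over 7766 genes and, for contrasts, over genes and 210 pairs. Gaps in a tumour were left missing, and its SE was widened for 1 array. The F code was tested on simulated data. Mixtures used mclust 6.1.1, and permutations (1e+05, two-sided) Python 3.11.15. Named genes are the members, 5 most like each, and per list up to 4 past the threshold with the largest range and up to 2 with the largest adjusted p. The members and lists were chosen with earlier results of these data known. Alternatives covered centring, quantile normalization, dye and slide-run covariates, filters, top values, orientation, probes as units and left-out arrays.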

Additional observations from a re-analysis of the deposited data

How the results depend on the processing

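Col6a1, Col7a1 and Col18a1 kept their calls in the moderated F test under centring on all or common probes, quantile normalization, the dye covariate, top values kept, robust moderation and the filter of 10 tumours. Leaving out each array in turn gave adjusted p-values of 8.34e-05 to 0.00159 for Col6a1, 0.147 to 0.618 for Col6a3, 0.000929 to 0.0228 for Col7a1 and 0.000453 to 0.0172 for Col18a1. It gave 1088 to 2290 genes that differed, the highest without the second array of tumour 660, and 61 to 85 list genes against 67 of 130. With the dye as a covariate 3308 genes differed and Col6a3 passed (adjusted p = 0.0306), as it did as a mean over probes that passed the filter (0.0383, chosen after seeing the data) and as probe 3595 (0.0406). With slide run as a covariate 533 genes and 37 list genes differed and Col7a1 did not (0.209); 514 of the 533 were among the 1356. Within slide runs 1, 2 and 3 alone, with fewer tumours, 0, 0 and 173 genes and 0, 0 and 26 list genes differed by limma (950, 437 and 1168 genes at an unadjusted p of at most 0.05). There Col6a1 gave 0.122, 0.9997 and 0.0728, Col7a1 0.761, 0.765 and 0.439, and Col18a1 0.316 and 0.9997 in runs 1 and 2. With values on both arrays of all 21 tumours required, 38 list genes differed and Col6a1, Col7a1 and Col18a1 had no value. With 5 tumours turned the other way, chosen after seeing the data, Col18a1 gave 0.602. The 5 highest tumours of Col6a1, Col6a3 and Col18a1 were the same under both centrings and quantile normalization. For Col6a3, 1 of these 5 changed with top values kept. With tumour 646 alone turned, chosen after seeing the data, it left the 5 highest of Col6a3 and of Col18a1. Correlations between members, none past the test, turned sign in these settings: for Col6a3 with Col7a1 r was -0.356 and -0.293 under centring on all and on common probes, -0.288 after quantile normalization, -0.153 with top values kept and -0.064 without tumour 656. For Col6a3 with Col18a1 it was -0.0335 after quantile normalization, for Col6a1 with Col6a3 -0.545 with top values kept, and for Col6a1 with Col18a1 0.0647 without tumour 656. With slide run as a covariate it was -0.128 for Col6a1 with Col7a1, 0.512 for Col6a1 with Col18a1 and 0.421 for Col7a1 with Col18a1. No paired analysis was possible because the array numbers 1 and 2 within a tumour follow accession order; the dye, of which every tumour has both orientations, was fitted as a covariate instead. Depth in reads does not apply to arrays; their number, 2 for each tumour, and dim spots limit the precision.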
